A study of Mus musculus with 18 samples.

Results

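The spinal baseline of mice expressing wild-type HDAC4 (HDAC4 wt) was compared with that of mice expressing LacZ, in animals that had received saline and not complete Freund's adjuvant (CFA) in the hindpaw. The comparison sets the saline value of the HDAC4 wt table beside the saline value of the LacZ table at every locus, a stretch of the genome that the authors' assembly treats as 1 gene. Of 34579 loci in each table, 34318 carried the same gene at an overlapping place in both, 19 of these were left out because a value was marked as failed or high in data, and 17756 had a mean of at least 1 FPKM over both saline groups and were compared. Of these 17756 loci, 16163 named 1 gene, 185 named several and 1408 named none.

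Both groups were C57BL/6 mice of 3 months (C57BL/6N in the study's methods), with 3 mice each. They had received an intraspinal injection of a recombinant adeno-associated virus (rAAV) into the dorsal horn of segments L3 to L5 on each side. The virus carried Flag-tagged LacZ, the bacterial enzyme used as the control transgene, or HDAC4 wt, and at least 3 weeks were allowed for recovery. Intraplantar saline was then given, and dorsal spinal cord was collected after 24 h. The series holds 4 more groups of 3 mice: LacZ and HDAC4 wt mice given CFA, and saline and CFA mice expressing HDAC4 3SA, a mutant with serine-to-alanine changes that stays in the nucleus. No uninjected mice are among the 18 samples, and the promoter that drove the transgenes is not given in the sources used here. The vector, its preparation and the table's own normalisation go together, so that they cannot be told apart.

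HDAC4 is a class IIa histone deacetylase that moves between cytoplasm and nucleus with neuronal activity and binds MEF2 transcription factors in the nucleus. The dorsal horn holds excitatory and inhibitory interneurons that relay touch and pain, together with astrocytes, oligodendrocytes and microglia, the resident immune cells. Interferons act on such cells by switching on a common set of antiviral and antigen-presenting genes, while lymphocytes and plasma cells are rare in healthy spinal cord.

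The tables hold 1 FPKM value (a fragment count corrected for exon length and for sequencing depth) per group over its 3 mice. Values of single mice, their spread and the depth of the libraries are unknown, so no difference below carries an error or a test, and all are descriptions of these 2 group values. Ratios are log2 of HDAC4 wt over LacZ with 0.1 FPKM added to each. They are centred on the median of the 10123 loci above 5 FPKM in both groups, a shift of 0.0102. A value of 1 or more, or of -1 or less, is at least a 2-fold difference. In bulk tissue, more or fewer cells of a type and more or less RNA per cell cannot be told apart.

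The differences ran mostly upwards. HDAC4 wt was at least 2-fold higher at 1215 of 17756 loci (6.84% of loci) and at least 2-fold lower at 604 (3.4%). At 345 loci it was at least 8-fold higher, against 10 that were at least 8-fold lower. Most loci were close, with the middle 50% between -0.20 and 0.27. The rule let in loci through their high group: 607 of the 1215 higher loci were under 1 FPKM in LacZ mice, and 608 of 16369 loci with at least 1 FPKM in both groups were higher. Of the 604 lower loci, fewer entered in this way, with 153 under 1 FPKM in HDAC4 wt mice. On the edge of the rule, C1ql2 entered with 0.854 FPKM in LacZ and 1.15 FPKM in HDAC4 wt mice, while Hells, at 1.06 and 0.935 FPKM, fell just short of a mean of 1 FPKM.

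**Figure D1:**
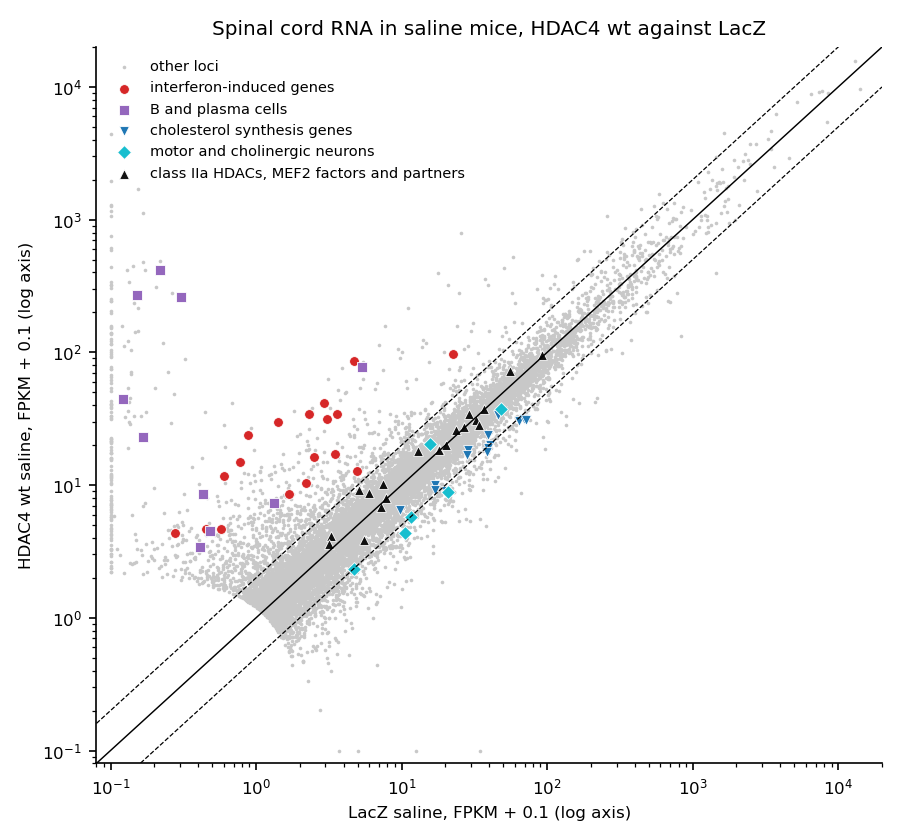
Group FPKM plus 0.1 in LacZ saline mice (x) and HDAC4 wt saline mice (y), both on log axes, for the 17756 loci compared, with members of 5 gene lists that met the 1 FPKM rule in colour. The solid line marks equal values and the dashed lines 2-fold differences: interferon-induced and B or plasma cell genes lie above the upper line, most cholesterol and cholinergic genes near the lower one, and class IIa HDAC and MEF2 genes between the lines.

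Hdac4 itself (chr1:91928777-92180314, GRCm38) was at 7.41 FPKM in LacZ saline and 10.1 FPKM in HDAC4 wt saline mice, a log2 ratio of 0.44 (1.37-fold in FPKM). In CFA mice the corresponding values were 7.72 and 10.8 FPKM. Whether transcripts of the injected transgene were counted at this locus is not known. These values are therefore no measure of how strongly the transgene was expressed. The 20 genes of the class IIa HDAC, MEF2 and partner list lay between -0.52 and 0.83 with a median of 0.03, and 0 of 20 differed 2-fold. Mef2c, a MEF2 factor that is also expressed in microglia, was at 5.01 FPKM in LacZ and 9.06 FPKM in HDAC4 wt mice. Hdac7, a class IIa relative, was at 5.84 and 8.6 FPKM, and Hdac5 at 34.1 and 28.2 FPKM. Camk4, a calcium-dependent kinase that signals to class IIa HDACs, was at 5.39 and 3.76 FPKM. Mef2a, Mef2b and Mef2d, and the corepressor genes Hdac3 and Ncor1, all lay between -0.08 and 0.23. Of the other histone deacetylases, 0 of 6 differed 2-fold, with a median of -0.01.

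For the lists that follow, each gene was read at 1 locus. Over 14021 such genes that met the 1 FPKM rule, 914 (6.52%) were at least 2-fold higher and 165 (1.18%) at least 2-fold lower, with a median of 0.05. These shares are the background for each count below. List medians are over every matched member, including those below 1 FPKM.

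**Figure D2:**
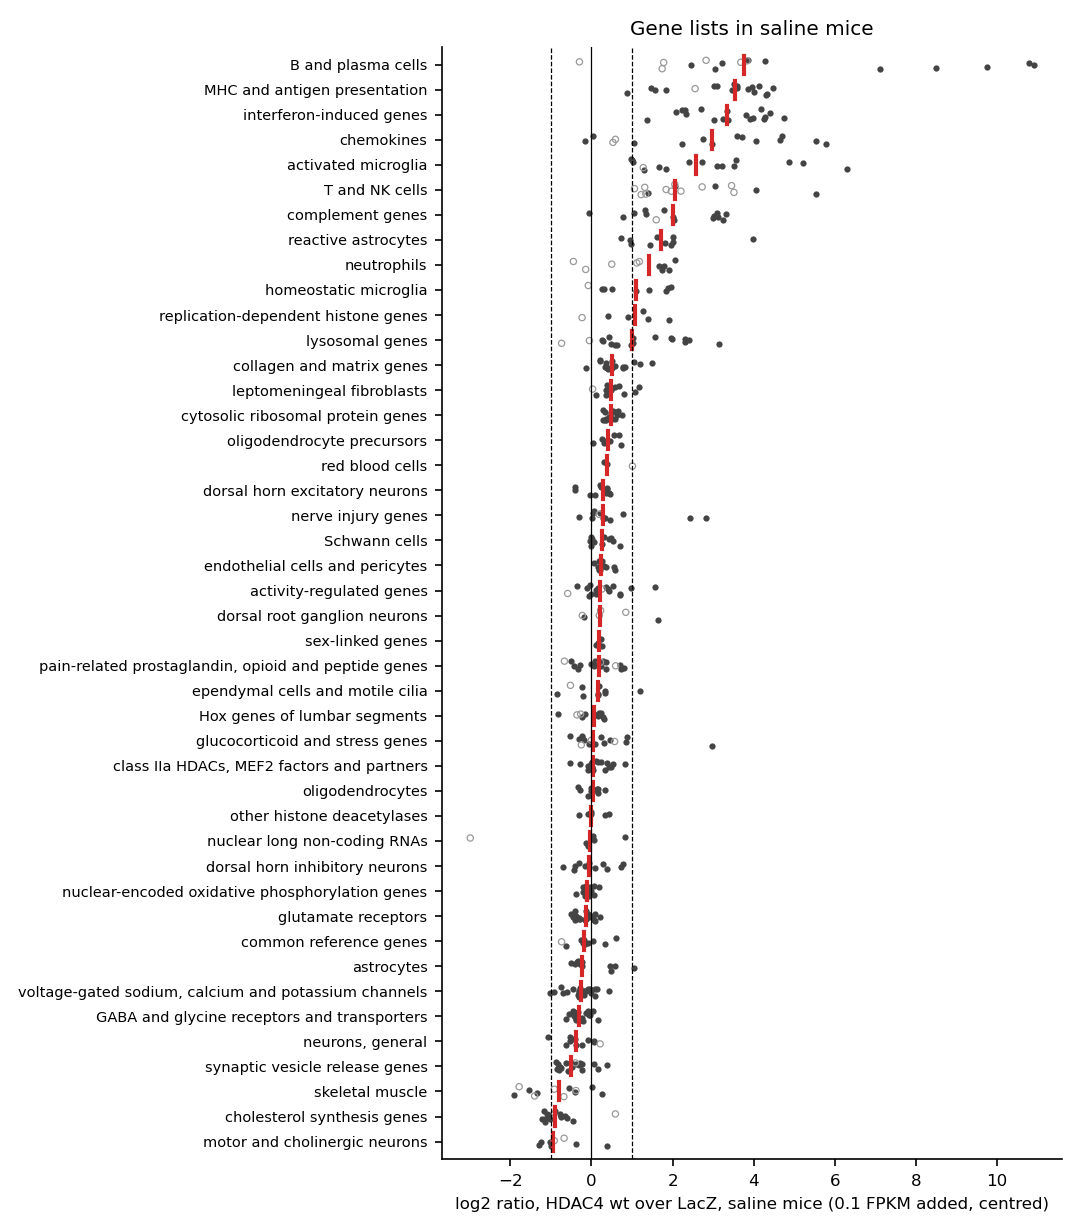
Log2 ratio of HDAC4 wt over LacZ in saline mice (x) for each matched member of 44 gene lists (rows, ordered by median). Filled points are members that met the 1 FPKM rule, open points those that did not, red bars the list medians and dashed lines 2-fold differences. Immune lists stand at the top, up to a median of 3.76, and cholinergic, cholesterol and muscle lists at the bottom, down to -0.96.

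Interferon-induced genes were higher without exception among the members compared. All 18 matched members of the 22 listed met the 1 FPKM rule and 18 of 18 were at least 2-fold higher, with a median of 3.35. Of these, 6 were under 1 FPKM in LacZ mice, and the 12 with at least 1 FPKM in both groups were all higher too, with a median of 2.97. Irf7, a transcription factor that amplifies interferon production, was at 1.31 FPKM in LacZ and 29.8 FPKM in HDAC4 wt saline mice, a log2 ratio of 4.40. Oasl2, an antiviral oligoadenylate synthetase relative, was at 2.2 and 34.5 FPKM, and Bst2, which tethers budding virus particles, at 2.83 and 41.4 FPKM. Ifit3, an antiviral RNA-response protein, was at 2.97 and 31.5 FPKM, and Isg15, a ubiquitin-like modifier, at 3.51 and 34.2 FPKM. The smallest ratio in the list, 1.36, belonged to Stat2, the transducer of type I interferon signals, at 4.86 and 12.7 FPKM. Iigp1, an interferon-inducible GTPase, had the largest at 4.74, from 0.783 to 23.6 FPKM.

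The promoters of these genes carried the interferon-stimulated response element more often than promoters at large. It was searched as a pair of GAAA blocks with 2 bases of any kind between them, on both strands of the 300 bases from 250 before to 50 after each start in the RefSeq promoter table (GRCm38.p6). It was present in 12 of 20 promoters of the list (60%), in 3.44% of all 32851 promoters and in 9.62% of the 686 promoters of genes at least 2-fold higher in HDAC4 wt mice. It was present in 2.98% of the promoters of all genes compared and in 3.82% of those of genes at least 2-fold lower. The list was written from known interferon-induced genes, so its share reflects that choice and not these 2 groups. The share for higher genes was not recomputed without the list's members. A match is a description of these letters and not a binding site. Stretches before the start of 5 higher genes are shown for the position of the motif, which is in capitals on either strand, and each sequence is written 5′ to 3′ in the direction of the gene.
Isg15 (chr4:156200836-156200935, minus strand): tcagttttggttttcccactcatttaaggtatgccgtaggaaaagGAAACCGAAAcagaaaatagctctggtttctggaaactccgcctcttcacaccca
Ifit3 (chr19:34583362-34583461, plus strand): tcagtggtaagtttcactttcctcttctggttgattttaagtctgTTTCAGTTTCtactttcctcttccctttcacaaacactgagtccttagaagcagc
Oas1a (chr5:120907526-120907590, minus strand): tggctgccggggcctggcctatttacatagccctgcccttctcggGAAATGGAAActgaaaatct
Bst2 (chr8:71537542-71537641, minus strand): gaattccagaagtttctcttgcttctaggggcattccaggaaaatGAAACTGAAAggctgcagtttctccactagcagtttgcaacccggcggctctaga
B2m (chr2:122147503-122147602, plus strand): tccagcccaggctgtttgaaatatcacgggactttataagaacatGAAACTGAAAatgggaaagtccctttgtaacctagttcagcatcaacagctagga
The match ended 62 bases before the start in Isg15, 112 in Ifit3, 10 in Oas1a, 114 in Bst2 and 129 in B2m. Oas1a, which makes the second messenger of the RNase L pathway, was at 0.177 FPKM in LacZ and 4.28 FPKM in HDAC4 wt mice. Isg15, Ifit3, Oas1a and Bst2 each carry further matches that overlap or neighbour the one shown. The NF-kappa B motif, searched as GGGA and TTTCC with 1 base of any kind between them, was present in 1.46% of promoters of higher genes (10 of 686), 1.53% of lower genes (2 of 131), 0.404% of the genes compared and 0.411% of all promoters. The MEF2 motif, searched as CTA and TAG with 4 bases of any kind between them, was present in 2.04% of promoters of higher genes (14 of 686), 3.05% of lower genes (4 of 131), 2.89% of the genes compared and 3.69% of all promoters.

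Genes for antigen presentation were higher by a similar amount. Of 18 matched members, 17 met the 1 FPKM rule and 16 of 17 were at least 2-fold higher, with a median of 3.55. Only 1 of the 17 was under 1 FPKM in LacZ mice. Cd74, the invariant chain of MHC class II, was at 17.8 FPKM in LacZ and 397 FPKM in HDAC4 wt mice. The class II chains H2-Aa, H2-Ab1 and H2-Eb1 were at 7.65, 6.87 and 5.33 FPKM in LacZ mice and at 157, 113 and 84.4 FPKM in HDAC4 wt mice. The class I chains H2-K1 and H2-D1 were at 24.8 and 39.2 FPKM against 278 and 322 FPKM. B2m, the light chain of class I, stood at 50.1 and 433 FPKM. The peptide transporter Tap1 and the immunoproteasome subunits Psmb8 and Psmb9 had ratios of 3.50, 3.59 and 3.59, where Tap1 and Psmb9 were read over the same stretch of the genome. Reads of near-identical MHC class I genes may be divided among them by the counting, so single class I values are uncertain. The CCAAT box, a common promoter element, was found in 14 of 16 promoters of this list (87.5%) and in 37.4% of all promoters.

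Microglial genes were higher in a graded way. Of the activated microglia list, 13 of 15 members compared were at least 2-fold higher, with a median of 2.57 over 16 matched. Of these 15, 4 were under 1 FPKM in LacZ mice, and over the 11 at or above 1 FPKM in both groups the median was 1.84. Cst7, a cystatin typical of activated microglia, was at 0.348 FPKM in LacZ and 35.7 FPKM in HDAC4 wt mice. Itgax, an integrin of activated myeloid cells, was at 0.323 and 15.8 FPKM, and Clec7a, a receptor for fungal glucans, at 0.819 and 26.9 FPKM. Cd68, a lysosomal protein of phagocytes, was at 5.37 and 62.7 FPKM. Trem2 and Tyrobp, the receptor and adaptor of a microglial lipid-sensing pathway, had ratios of 3.10 and 3.22. Of the homeostatic list, 5 of 8 were at least 2-fold higher with a median of 1.10. P2ry12, Sall1 and Siglech, which define resting microglia, were at 0.31, 0.27 and 0.51, while Cx3cr1 and Csf1r were at 1.85 and 1.41.

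Complement and lysosomal genes belong to the same phagocytic equipment. For complement, 12 of 14 members compared were at least 2-fold higher, with a median of 2.01 over 15 matched, and 2 of the 14 were under 1 FPKM in LacZ mice. The subunits of the initiating complex, C1qa, C1qb and C1qc, were at 37.5, 13.6 and 14 FPKM in LacZ mice and at 360, 111 and 123 FPKM in HDAC4 wt mice. C4b and C3, the components that tag surfaces, were at 6.45 and 8.29 FPKM against 53.2 and 34 FPKM. The complement shield Cd55 was at 5.1 and 4.96 FPKM. For lysosomal genes, 9 of 16 were at least 2-fold higher, with a median of 0.99. Ctss, a protease of antigen-presenting cells, was at 58 and 520 FPKM, whereas Lamp1 and Psap, present in lysosomes of all cells, were at 0.26 and 0.43 on the log2 scale.

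Chemokines were mostly near the floor in LacZ mice. Of 13 members compared, 11 were at least 2-fold higher and 10 of the 13 were under 1 FPKM in LacZ mice, with a median of 2.98 over 15 matched. The 3 with at least 1 FPKM in both groups had a median of 0.03. Ccl5, which draws in T cells, was at 0.503 FPKM in LacZ and 28.2 FPKM in HDAC4 wt mice. Cxcl9, which interferon-gamma induces and which draws in T cells, was at 0.0501 and 3.79 FPKM, and Cxcl13, which draws in B cells, at 0.00565 and 5.77 FPKM. Ccl2, which draws in monocytes, was at 0.682 and 3.6 FPKM. The constitutive chemokines Cxcl12 and Cx3cl1 were at 0.03 and -0.15 on the log2 scale.

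**Figure D3:**
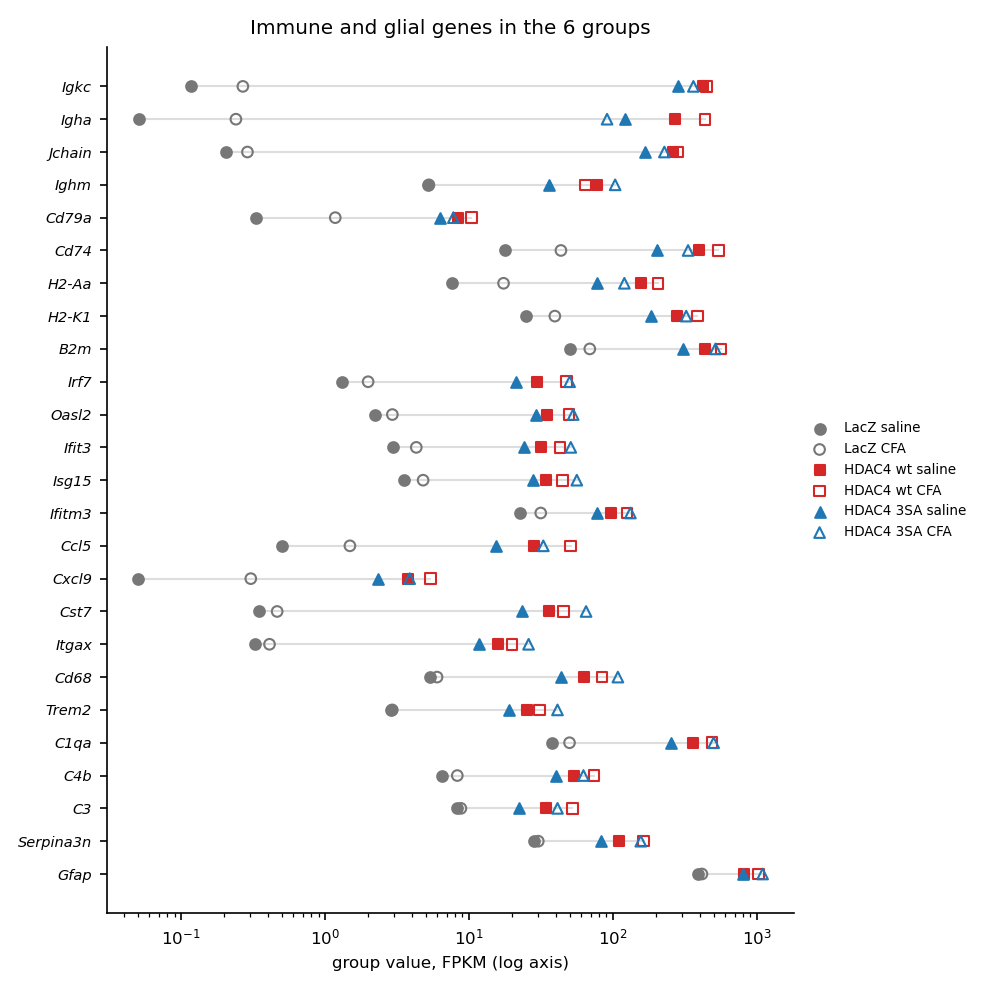
Group FPKM (x, log axis) of 25 immune and glial genes (rows) in LacZ (grey circles), HDAC4 wt (red squares) and HDAC4 3SA (blue triangles) mice, filled for saline and open for CFA; 1 value per group. In each row both LacZ values lie below the HDAC4 wt values, for example 0.117 and 0.268 FPKM of Igkc against 419 and 446 FPKM.

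Antibody genes showed wide gaps. Igkc, the kappa light chain constant region, was at 0.117 FPKM in LacZ and 419 FPKM in HDAC4 wt saline mice. Among heavy chain constant regions, Igha (the IgA class) was at 0.0513 and 269 FPKM, Ighm (IgM) at 5.22 and 77 FPKM, and Ighg3 at 0.16 and 29.2 FPKM. The other IgG classes stayed low: Ighg2b was at 0.0164 and 1.4 FPKM, Ighg2c at 0.0105 and 1.49 FPKM, and Ighg1 was listed at 0 in LacZ and at 0.614 FPKM in HDAC4 wt mice. Ighe was listed at 0 in both groups. The lambda constant regions Iglc1 and Iglc2 were at 0.0224 and 0.129 FPKM in LacZ mice and at 44.3 and 118 FPKM in HDAC4 wt mice. Jchain, which joins IgA and IgM subunits, was at 0.205 and 262 FPKM, and Mzb1, a chaperone of antibody-secreting cells, at 0.0666 and 23.1 FPKM.

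Variable segments followed. Of 120 heavy chain variable loci, 1 reached 1 FPKM in LacZ saline mice and 78 in HDAC4 wt saline mice. For 90 kappa variable loci the numbers were 2 and 56. Over the 126 antibody segment loci that met the 1 FPKM rule, 123 were higher and 1 lower. All 123 were under 1 FPKM in LacZ mice and entered through the HDAC4 wt value, and of the 2 loci with at least 1 FPKM in both groups 0 were higher. No fold is given, since 83 of the 126 were listed at 0 in LacZ mice. Of 24 T cell receptor segment loci, 0 reached 1 FPKM in either saline group. Segments resemble each other closely, so the split of reads between single segments is uncertain.

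Markers of lymphocytes and plasma cells were higher too. Of the B and plasma cell list, 10 of 10 members compared were at least 2-fold higher, 8 of them under 1 FPKM in LacZ mice, with a median of 3.76 over 16 matched. The summed level of the list was 8.56 FPKM in LacZ and 1123 FPKM in HDAC4 wt mice, most of it antibody transcripts. Cd79a and Cd79b, which signal for the B cell receptor, were at 0.333 and 0.384 FPKM in LacZ mice and at 8.42 and 4.45 FPKM in HDAC4 wt mice. Ms4a1, which marks mature B cells and not plasma cells, was at 0.17 FPKM in LacZ and 0.81 FPKM in HDAC4 wt mice. Of 16 T and NK cell markers, 5 met the rule and 5 of 5 were higher, 4 of them under 1 FPKM in LacZ mice, with a median of 2.06 over all 16. Cd3g, a subunit of the T cell receptor complex, was at 0.0987 FPKM in LacZ and 3.2 FPKM in HDAC4 wt mice, and Cd4 at 0.0708 and 1.86 FPKM. Cd4 did not reach a mean of 1 FPKM. Cd8a, at 0.0905 and 0.587 FPKM, and the cytotoxic granule gene Gzmb, at 0.0815 and 0.616 FPKM, were low in both. How far cells with these markers account for the interferon, chemokine or MHC differences was not tested.

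Genes were also ranked by the size of the ratio. Among 8598 genes with a RefSeq protein, a mean of at least 5 FPKM, 277 were at least 2-fold higher and 67 at least 2-fold lower. The 15 highest ratios ran from 4.64 upwards, and the gene ranked next stood at 4.47. Of these 15, 14 were under 1 FPKM in LacZ mice and entered through the HDAC4 wt value, the exception being H2-Q1. They comprised Jchain and Mzb1, Cst7, Itgax, Clec7a and Ms4a7 of myeloid cells, the chemokines Ccl5 and Ccl8, Zbp1 and Iigp1 of the interferon response, Ly6c2, a surface protein of monocytes, H2-Q1, Naip2, Tank and Ly6f. Zbp1, a sensor of viral nucleic acid, was at 0.265 FPKM in LacZ and 13.5 FPKM in HDAC4 wt mice, and Ly6c2 at 0.172 and 48.2 FPKM. All 15 were at least 2-fold higher in CFA mice too. Ly6f, Naip2 and Tank were listed at 0 in LacZ saline mice. Ly6f was read over 280 bases or 7.24% of its gene, and Tank has a further locus of the same span at 11.2 and 13.2 FPKM.

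Astrocyte genes divided by kind. Of reactive astrocyte genes, 7 of 10 were at least 2-fold higher with a median of 1.72, and 10 of 10 had ratios above 0. Serpina3n, a protease inhibitor of reactive astrocytes, was at 28.3 FPKM in LacZ and 111 FPKM in HDAC4 wt mice, and Vim, an intermediate filament, at 52 and 142 FPKM. Gbp2, at 2.32 and 38.1 FPKM, is also interferon-induced, and C3 is also counted in the complement list. How far other cells account for the values of this list was not tested. Of general astrocyte genes, 1 of 11 was at least 2-fold higher, namely Gfap, the astrocyte intermediate filament, at 389 and 807 FPKM, and the median was -0.23. The glutamate transporters Slc1a2 and Slc1a3 were at -0.27 and -0.51 on the log2 scale, and the water channel Aqp4 at 0.59.

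Other support cells had few differences of 2-fold. Oligodendrocyte genes had a median of 0.03, their precursors 0.41, endothelial cells and pericytes 0.23, and Schwann cells 0.26, with 0 members at least 2-fold different in these 4 lists. Ratios were above 0 for 5 of 10 oligodendrocyte, 8 of 8 precursor, 12 of 12 endothelial and pericyte and 8 of 11 Schwann cell genes, and also for 13 of 13 leptomeningeal and 16 of 17 matrix genes. Prx, a peripheral myelin protein, was at 50.9 FPKM in LacZ and 53.2 FPKM in HDAC4 wt mice. Leptomeningeal fibroblast genes had a median of 0.48, with Igfbp2 at 24.3 and 55.4 FPKM and Fmod at 10.6 and 22.5 FPKM at least 2-fold higher among 12. Matrix genes had a median of 0.50 and 3 of 17 higher, namely the protease Mmp2, the adhesion protein Fn1 and the proteoglycan Bgn. Mmp2 was at 2.6 and 7.62 FPKM, Fn1 at 7.47 and 17.5 FPKM, and Bgn at 10.3 and 21.5 FPKM. Ependymal genes had a median of 0.16 with 1 of 9 higher (Cfap126, 1.19), and red blood cell genes a median of 0.39 with 0 of 2.

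General neuronal and vesicle release genes lay mostly below LacZ, for the most part by less than 2-fold. Of 11 general neuronal genes compared, 1 was at least 2-fold lower, with a median of -0.39 over 12. That gene was Nefl, the neurofilament light chain of large axons, at 494 FPKM in LacZ and 235 FPKM in HDAC4 wt mice. Snap25, a component of the vesicle fusion machinery, was at 1227 and 795 FPKM, and Rbfox3, a nuclear marker of neurons, at 71.6 and 68 FPKM. Synaptic vesicle release genes had a median of -0.49, with 17 of 20 below 0 and 0 of 19 differing 2-fold. Vamp1 and Cplx1, which serve fast release, were at 408 and 389 FPKM in LacZ mice and at 230 and 226 FPKM in HDAC4 wt mice.

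Receptors and channels lay in the same range. Glutamate receptors had a median of -0.14 and GABA and glycine receptors and transporters one of -0.31, with 0 of 20 differing 2-fold in each. Of 26 voltage-gated channels, 22 were below 0, with a median of -0.25, and 1 was at least 2-fold lower. Scn4b, Kcna2, Scn8a and Scn1a, which serve fast axonal firing, were at -0.92, -0.74, -0.71 and -0.60. Inhibitory interneuron genes of the dorsal horn were nearer to LacZ, with a median of -0.06. Excitatory interneuron genes leaned the other way, with a median of 0.29 and 9 of 12 above 0. In each of these lists 0 of 12 differed 2-fold. Tac1, which encodes substance P, was at 34.5 and 44.9 FPKM, and Slc17a6, the vesicular glutamate transporter of excitatory interneurons, at 80.8 and 61.8 FPKM.

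Cholinergic genes were among the lowest. Of 6 members compared, 4 were at least 2-fold lower, with a median of -0.96 over 8. Slc18a3, the vesicular acetylcholine transporter, was at 10.4 FPKM in LacZ and 4.25 FPKM in HDAC4 wt mice, and Chat, the enzyme that makes acetylcholine, at 4.57 and 2.25 FPKM. Both were read over 1 shared stretch of chromosome 14. Slc5a7, the choline transporter, was at 11.4 and 5.61 FPKM, and Prph, a neurofilament of motor and sensory axons, at 20.8 and 8.81 FPKM. The motor neuron factors Isl1 and Mnx1 did not reach a mean of 1 FPKM. Calca, also expressed in sensory axons, was at 15.5 and 20.3 FPKM. In CFA mice 0 of 6 differed 2-fold and the median was -0.31. Motor neurons lie in the ventral horn of the cord.

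Cholesterol synthesis genes were lower as a group. Of 14 members compared, 7 were at least 2-fold lower, and 14 of 15 matched members lay below 0, with a median of -0.91. The exception was Hmgcs1, an early enzyme, which was read at its longest locus (0.134 and 0.255 FPKM, below the rule). At a further locus it was at 171 FPKM in LacZ and 80.9 FPKM in HDAC4 wt mice. With each gene read at its highest locus, 8 of 15 members were at least 2-fold lower and the median was -1.03. Insig1, the sterol-sensing anchor of the pathway's transcription factor, was at 69.4 FPKM in LacZ and 31.3 FPKM in HDAC4 wt mice. The enzymes Idi1, Msmo1, Sqle and Cyp51 were at 38.6, 64.5, 39.3 and 40.1 FPKM in LacZ mice and at 17.5, 30.1, 19 and 19.8 FPKM in HDAC4 wt mice. Srebf2, which encodes the transcription factor, was at 46.2 and 33.9 FPKM. Stard4, a cholesterol carrier outside the list, was at 15.4 and 6.06 FPKM. The median in CFA mice was -0.85, where 1 member passed 2-fold. The sterol response element searched as TCACNCCAC was present in 1 of 12 promoters of the list, that of Hmgcs1, and in 1.24% of all promoters, while the CCAAT box was present in 10 of 12 (83.3%).

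**Figure D4:**
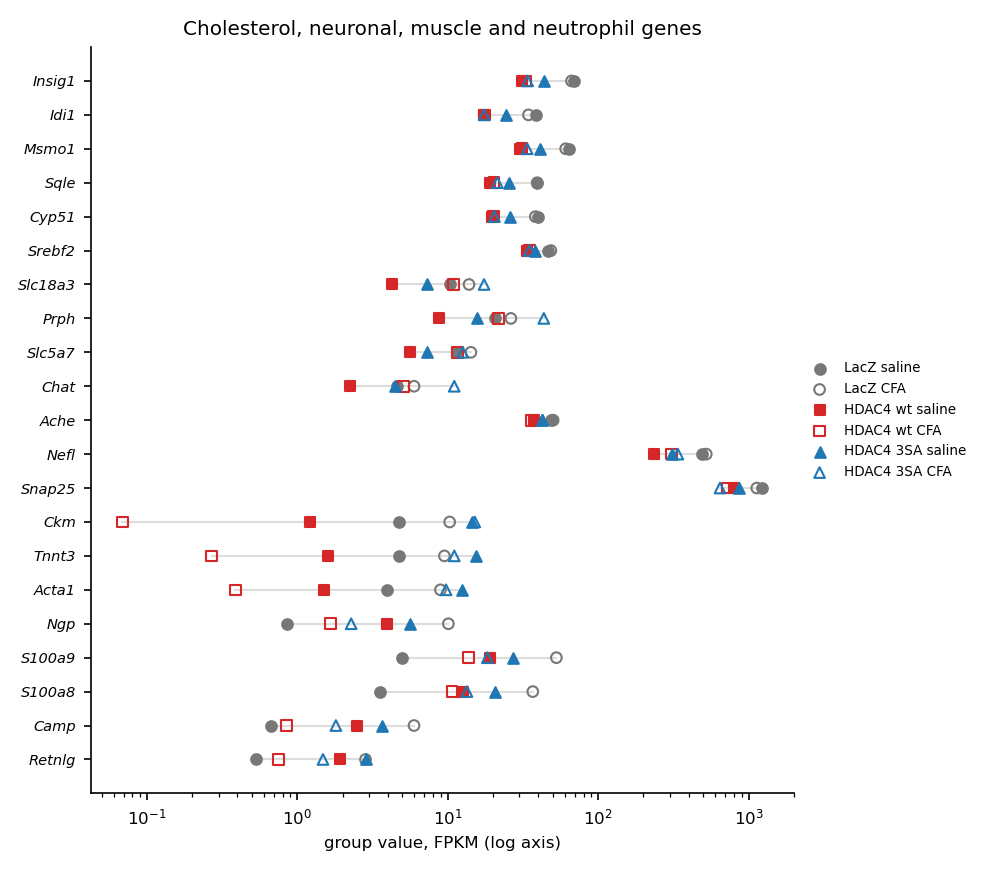
Group FPKM (x, log axis) of cholesterol, neuronal, muscle and neutrophil genes (rows) in LacZ (grey circles), HDAC4 wt (red squares) and HDAC4 3SA (blue triangles) mice, filled for saline and open for CFA; 1 value per group. For Insig1 the LacZ values of 69.4 and 66.5 FPKM lie above the others, whereas for Ngp the saline and CFA values of LacZ (0.857 and 10.1 FPKM) lie on either side of those of HDAC4 wt.

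Genes of muscle, blood and sensory ganglia were measured beside those of the cord. Skeletal muscle genes had a median of -0.80, and 3 of 7 compared were at least 2-fold lower. Ckm, the muscle creatine kinase, was at 4.78 FPKM in LacZ and 1.21 FPKM in HDAC4 wt saline mice, Tnnt3, a fast troponin, at 4.75 and 1.59 FPKM, and Acta1, skeletal actin, at 3.94 and 1.5 FPKM. In HDAC4 3SA saline mice, Ckm was at 14.5 FPKM, Tnnt3 at 15.5 FPKM and Acta1 at 12.5 FPKM. Neutrophil genes had a median of 1.43, and 5 of 5 compared were at least 2-fold higher. Of these 5, 3 were under 1 FPKM in LacZ saline mice, and with 1 FPKM added in place of 0.1 the median was 0.73. S100a9 and S100a8, the abundant calcium-binding proteins of neutrophils, were at 4.96 and 3.54 FPKM in LacZ and at 19.2 and 12.6 FPKM in HDAC4 wt mice. Ly6g and Cxcr2 stayed below 0.1 FPKM in both saline groups. Of sensory ganglion markers, Avil was at 0.933 and 3.16 FPKM and 4 of 6 matched members did not reach a mean of 1 FPKM, with a median of 0.21.

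Stress and growth genes held single large differences. Cdkn1a, the cell cycle inhibitor p21, was at 14.6 FPKM in LacZ and 117 FPKM in HDAC4 wt mice, the only member of 13 glucocorticoid and stress genes to differ 2-fold, and the list's median was 0.04. Of 12 nerve injury genes compared, 2 were at least 2-fold higher with a median of 0.28. Both were under 1 FPKM in LacZ mice, and of the 10 with at least 1 FPKM in both groups 0 were higher. The 2 higher members were Atf3, an injury-induced transcription factor, at 0.926 and 5.51 FPKM, and Sprr1a, a growth-associated protein, at 0.234 and 2.28 FPKM. Of 16 activity-regulated genes, 1 was at least 2-fold higher, namely Btg2, which restrains proliferation, at 4.03 and 12.3 FPKM. Fos, the common activity marker, was at 9.49 and 12.8 FPKM, and the list's median was 0.21. Histone genes of the replication-dependent kind had 3 of 5 higher with a median of 1.08 (0.75 with 1 FPKM added), led in level by Hist1h1c at 15.7 and 41.5 FPKM. The libraries were selected for poly-A RNA, and the part of that selection in the histone values was not tested.

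Genes linked to pain were read within 2-fold at the loci used. Of 15 prostaglandin, opioid and peptide genes compared, 0 differed 2-fold, with a median of 0.18. Ptgs1, the constitutive cyclooxygenase, was at 2.62 FPKM in LacZ and 4.67 FPKM in HDAC4 wt mice, and Ptgs2, the inducible one, at 0.456 and 0.747 FPKM, below the rule. Pdyn, the dynorphin precursor, was at 17.4 and 29.3 FPKM. The opioid receptors Oprm1, Oprd1 and Oprk1 were at -0.42, -0.50 and -0.29. A further locus of the same span was at -1.15 for Oprm1 (2.66 and 1.15 FPKM) and at -1.30 for Oprd1 (1.65 and 0.616 FPKM). Slc22a6, the organic anion transporter OAT1, was at 0.0438 and 0.0605 FPKM over 14% of its gene, and Msln and Slc26a7 also stayed below 0.2 FPKM in both saline groups. Thbs1 was at 2.22 and 2.98 FPKM, Lrg1 at 1.2 and 1.72 FPKM, Nov at 1.98 and 2.8 FPKM, and H19 at 0.362 and 0.6 FPKM.

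Lists that check the tissue and the scaling had few differences of 2-fold, apart from the histone genes given above. Hox genes of lumbar segments had a median of 0.06, reference genes -0.18, oxidative phosphorylation genes -0.10, long non-coding RNAs -0.03 and sex-linked genes 0.20, with 0 members differing 2-fold among those compared. The reference gene Gusb, a lysosomal enzyme, did not meet the rule at its longest locus (0.446 and 0.23 FPKM), but at a further locus it was at 8.5 FPKM in LacZ and 22.9 FPKM in HDAC4 wt mice. Cytosolic ribosomal protein genes were all above 0, between 0.28 and 0.74, with a median of 0.48, above the upper quartile of all loci, and 0 of 16 past 2-fold. None of the 10 mitochondrially encoded genes was matched by name. Short genes leaned upwards: with genes ordered by exon length and cut into 5 groups of like size, the median ratio was 0.13 in the shortest group and -0.02 in the longest. Cut by FPKM, it was 0.18 in the lowest group and -0.05 in the highest. The part of this lean in the ribosomal protein values was not tested.

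The same contrast in CFA mice comes from other animals, in the same tables. There, 1219 loci were at least 2-fold higher in HDAC4 wt than in LacZ mice (6.87%) and 221 at least 2-fold lower (1.24%). Of the loci higher in saline mice, 939 were also higher in CFA mice, which is 77.3% of the saline and 77.03% of the CFA set. Of the loci lower in saline mice, 75 were also lower in CFA mice, which is 12.4% and 33.9%. Across the 17756 loci the ratios in saline and CFA mice had a Pearson r of 0.77 and a Spearman rho of 0.65. Loci of 1 table share the vector, its normalisation and the annotation, so this is a description. List medians in CFA mice were 3.29 for interferon-induced genes, 3.20 for antigen presentation, 3.49 for B and plasma cells, 2.48 for activated microglia and 1.98 for complement, beside 3.35, 3.55, 3.76, 2.57 and 2.01 in saline mice. Other lists were further apart. The median of ependymal genes was 0.16 in saline mice, with 1 of 9 higher, and 1.09 in CFA mice, with 6 of 9 higher. Skeletal muscle genes were at -0.80 and -1.64, cholinergic genes at -0.96 and -0.31, excitatory interneuron genes at 0.29 and -0.29, and neutrophil genes at 1.43 and -1.85. These differences between saline and CFA mice were not tested.

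**Figure D5:**
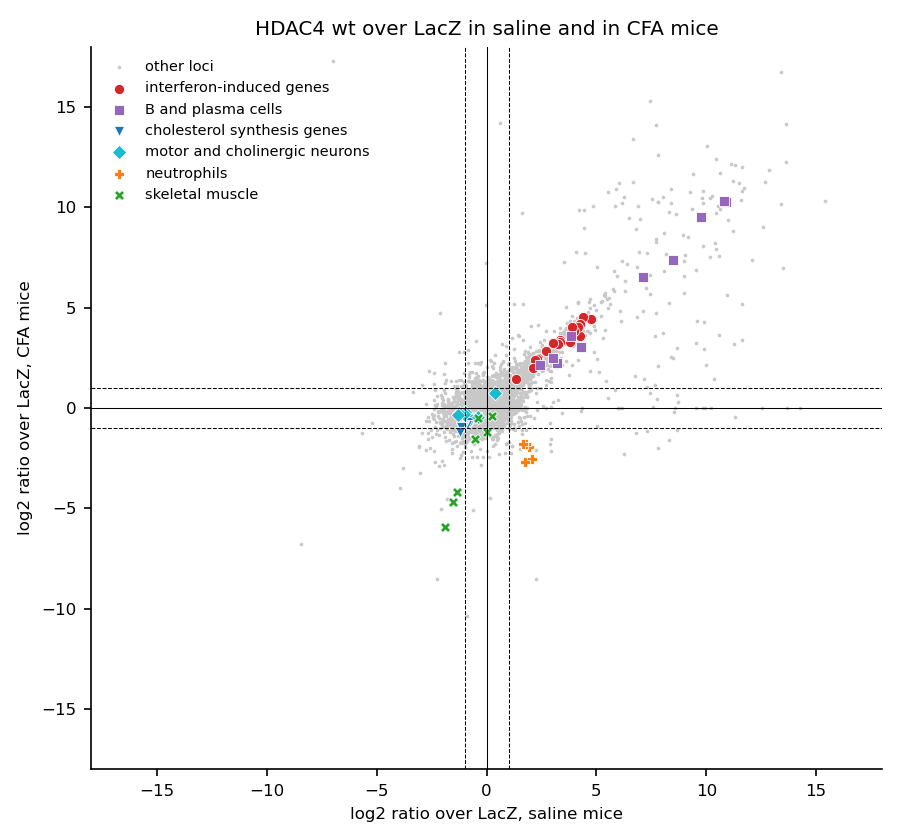
Centred log2 ratio of HDAC4 wt over LacZ in saline mice (x) and in CFA mice (y) for the 17756 loci compared, with members of 6 lists in colour and dashed lines at 2-fold. Interferon-induced and B or plasma cell genes lie along the upper right diagonal, whereas the neutrophil genes lie at the lower right, with medians of 1.43 in saline and -1.85 in CFA mice.

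Higher and lower calls differed in how they depended on loci that share a name. Of genes with a RefSeq protein, 8695 had a single locus in the table. Among these, 537 (6.18%) were at least 2-fold higher and 50 (0.575%) at least 2-fold lower. The ratios of these genes in saline and CFA mice had a Pearson r of 0.92. Of the 537, 477 were also higher in CFA mice (88.8%, and 86.3% of the CFA set). Of the 50, 12 were also lower (24.0% and 41.4%). Where a gene name had several loci, 275 of 5071 were higher (5.42%) and 246 lower (4.85%), with an r of 0.69. Loci without a gene name had 7.67% higher and 16.9% lower.

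The lowest ranked genes were of that kind. The 15 lowest ratios, at or below -1.63, were next followed by -1.62. Of these 15 genes, 11 had several loci of the name, and in all 11 the other loci compared were within 2-fold or higher. Ano8 was at 24.9 FPKM in LacZ and 5.25 FPKM in HDAC4 wt mice at the locus ranked and at 20.2 and 17.8 FPKM at another locus of the same span. Iglon5, a neuronal adhesion molecule, was at 166 and 41.7 FPKM, with a further locus at 32.2 and 19.4 FPKM. The tables do not say which locus of a span lies on the gene's own strand. Of the 15, 4 were at least 2-fold lower in CFA mice, against 15 of 15 for the highest ratios. For Cst7, Cdkn1a, H2-Ab1, Ighm, Oas1a, Avil, Prph and Slc5a7, which are named above and also have a further locus, that locus differed in the same direction. For Cx3cr1 and Cfap126 it did not differ 2-fold, at 1.82 and 1.79 FPKM and at 0.224 and 0.253 FPKM in LacZ and HDAC4 wt mice. Sall1, read at 0.27, had further loci at -0.37 and -0.59, and Vamp1, read at -0.84, had one at -0.06. Oprm1, Oprd1, Gusb, Hmgcs1 and Tank, whose further loci also differed in call, are given above.

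The genes with 1 locus that were lower in both sets of mice were few and fell into recognisable groups. They included Ckm, Tnnt3, Acta1, Tnnc2 and Myl1 of skeletal muscle, the cholesterol carrier Stard4, and Myoc, Lsamp, Brip1, Adam32 and D10Wsu102e. Myoc, the secreted myocilin, was at 22 FPKM in LacZ saline and 7.47 FPKM in HDAC4 wt saline mice, and at 22.5 and 11.1 FPKM in CFA mice. Lsamp, a neuronal adhesion molecule, was at 31.6 and 13.9 FPKM, over 13.3% of its gene. Adam32 was at 34.3 FPKM in LacZ and listed at 0 in HDAC4 wt mice, over 4.44% of its gene.

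HDAC4 3SA saline mice share the LacZ saline mice as their control, so their values are set beside those of HDAC4 wt without a comparison of lists. Irf7 was at 1.31, 29.8 and 21.3 FPKM in LacZ, HDAC4 wt and HDAC4 3SA saline mice. Cd74 was at 17.8, 397 and 204 FPKM, and Igkc at 0.117, 419 and 283 FPKM. C1qa was at 37.5, 360 and 254 FPKM, and Gfap at 389, 807 and 805 FPKM. Among lower genes, Insig1 was at 69.4, 31.3 and 43.5 FPKM, and Nefl at 494, 235 and 308 FPKM. Chat was at 4.57, 2.25 and 4.45 FPKM. For the immune genes and Gfap, both HDAC4 groups stood above LacZ, and for Insig1 and Nefl both stood below, whereas Chat in HDAC4 3SA mice was near LacZ. Hdac4 was at 7.41, 10.1 and 8.86 FPKM.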

How the data were processed

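Dorsal spinal cord RNA of 18 mice (6 groups of 3) was sequenced by the authors as strand-specific poly-A libraries. Per the labels and the study's methods, reads were aligned with TopHat and Bowtie to GRCm38, and levels were estimated with Cufflinks and Cuffdiff. The authors deposited 3 tables, 1 per vector, normalised in separate runs. The deposited FPKM values are Cuffdiff's group estimates over 3 mice, with no value per mouse and no depth, so intervals cannot be given. The deposited log2 fold changes, test scores, p-values and q-values of the authors compare CFA with saline within a vector and were not used.

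The saline columns of the HDAC4 wt and LacZ tables were joined by locus identifier, gene and overlapping place (Python 3.11.15, pandas 2.3.3). Loci with a status of OK or NOTEST in both tables and a mean of at least 1 FPKM were compared as log2 ratios with 0.1 FPKM added, centred on the median of loci above 5 FPKM in both groups. A 2-fold difference was counted. No test was run: each group has 1 value per locus. For lists and named genes, 1 locus per gene was used, the longest and then the highest. Gene names of 45 lists (602 genes) were matched by symbol. Promoters came from RefSeq (GRCm38.p6). Start coordinates are given from 1.

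Genes were named by rule: Hdac4 and the class IIa list, the 15 highest and 15 lowest ratios with a mean of at least 5 FPKM and a RefSeq protein, list members that differed 2-fold or had the highest level, the 10 highest and lowest in both saline and CFA mice, and genes the study names. Others that are named were chosen after their values were seen. Members, lists and rules were chosen with earlier results of these data known. Alternatives were another added constant, centring, minimum level, status, gene class and fold. Some members of the lists are not reported here by name.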

Additional observations from a re-analysis of the deposited data

Results flagged for a closer look

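The neutrophil list differed between saline and CFA mice in direction: its median log2 ratio of HDAC4 wt over LacZ was 1.43 in saline and -1.85 in CFA mice. The gene values in saline and CFA mice were 2.07 and -2.53 for Ngp, 1.92 and -1.92 for S100a9, 1.79 and -1.77 for S100a8, 1.75 and -2.68 for Camp, and 1.67 and -1.79 for Retnlg. Summed over the 10 matched markers, the level was 11.4 FPKM in LacZ saline, 114 FPKM in LacZ CFA, 41.9 FPKM in HDAC4 wt saline, 29.1 FPKM in HDAC4 wt CFA, 62.5 FPKM in HDAC4 3SA saline and 39.2 FPKM in HDAC4 3SA CFA mice. LacZ CFA mice were thus the highest group and LacZ saline mice the lowest. Mup-ps16, read over 79 bases, was at -2.95 in saline and 1.14 in CFA mice. The red blood cell list had medians of 0.39 in saline and -0.35 in CFA mice, and its part in these values was not tested. With 1 value per group, none of the differences between saline and CFA mice was tested.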

How the results depend on the processing

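The count of loci at least 2-fold higher (1215) was 525 with a mean of at least 5 FPKM, 2131 at 1.5-fold and 765 at 3-fold. In alternatives chosen after seeing the data it was 608 with at least 1 FPKM in both saline groups and 537 for genes with 1 locus and a RefSeq protein. The count at least 2-fold lower (604) was 344 with 1 FPKM added, 285 with a mean of at least 5 FPKM, 296 for loci whose gene has a RefSeq protein, 1621 at 1.5-fold, 150 at 3-fold and 50 for genes with 1 locus and a RefSeq protein. The other counts stayed within 1.5 times under another centring, upper quartile scaling, a mean of 0.5 FPKM, status OK in both tables or without segments. The log2 ratio of Hdac4 ranged from 0.39 to 0.45. List members at least 2-fold different numbered 138 of 496, and 98 to 151 under the alternatives. Of 526 list medians recomputed, 503 kept their side of 2-fold, 19 passed it and 4 fell below it: neutrophil genes at 0.73 and histone genes at 0.75 with 1 FPKM added, histone genes at 0.89 with a mean of at least 5 FPKM, and chemokines at 0.03 with at least 1 FPKM in both groups. With each gene read at its highest in place of its longest locus, an alternative added after seeing the data, cholesterol genes were at -1.03 and lysosomal genes at 1.02. No scaling shifted the loci by over 0.1. In CFA mice the median of neutrophil genes was -1.85, and among the lowest ranked genes Mup-ps16 was at 1.14, Dnajc21 at 0.42, Parp16 at 0.74 and Acsm2 at 0.11, opposite to saline mice. No paired analysis was possible because the columns carry group values without replicate numbers, and leaving out a mouse was not possible for the same reason. Depth is unknown, so the precision of values near 1 FPKM cannot be stated.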

Other observations

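Gene families chosen after their values were seen held further immune genes. Of 12 Toll-like receptors matched, which sense microbial molecules, 6 met the 1 FPKM rule and 5 of these were at least 2-fold higher in HDAC4 wt saline mice. Of the 6, 4 were under 1 FPKM in LacZ mice and entered through the HDAC4 wt value. Tlr2, a sensor of bacterial lipoproteins, was at 1.58 FPKM in LacZ and 9.96 FPKM in HDAC4 wt mice. Tlr7 and Tlr9, the endosomal sensors of RNA and DNA, were at 0.652 and 0.404 FPKM against 4.84 and 2.44 FPKM. Tlr3, which is also expressed in astrocytes, was at 5.81 and 9.5 FPKM and below 2-fold. All 4 Fc gamma receptors were higher, 1 of them under 1 FPKM in LacZ mice, among them Fcgr3 at 5.48 and 31.5 FPKM and Fcgr4 at 0.196 and 6.17 FPKM.

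Of 9 caspases, 5 were at least 2-fold higher, and 2 of the 9 were under 1 FPKM in LacZ mice. The inflammatory caspases Casp1 and Casp4 were at 1.93 and 0.446 FPKM in LacZ mice and at 6.35 and 3.41 FPKM in HDAC4 wt mice, and Casp8, an initiator of cell death, at 1.12 and 3.82 FPKM. Casp9, the initiator of the mitochondrial pathway, was at 6.6 and 6.35 FPKM. Of 7 guanylate-binding proteins, 5 met the rule, 1 of them under 1 FPKM in LacZ mice, and 5 were higher, led in level by Gbp3 at 4.64 and 86.1 FPKM. Of these, Gbp2, Gbp3 and Gbp7 are also members of the lists above.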
